A study of Homo sapiens with 15 samples.

Results

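The 45 genes described here encode the proteins that license, start and carry out DNA replication in S phase, with the enzymes that supply its nucleotides and a few regulators of the step from G1 to S. They were taken by symbol from a list drawn up by function, and all 45 were found among the 25503 genes of the table. Their RNA was measured by sequencing in 15 libraries from 2 established human pancreatic ductal adenocarcinoma lines, AsPC-1 (first grown from ascites) and Capan-1 (from a liver metastasis). AsPC-1 cells were transfected with an siRNA against B4GALT5 (siB4GALT5), an siRNA against B3GNT3 (siB3GNT3) or a control siRNA (siNC), and Capan-1 cells with siB3GNT3 or siNC, with 3 libraries in each of the 5 groups. B4GALT5 is a Golgi galactosyltransferase of glycosphingolipid synthesis, and B3GNT3 is a Golgi N-acetylglucosaminyltransferase of O-glycan extension. The series was set up to ask how both enzymes bear on MHC class I and CD8 T cell responses. The siRNA sequences, the dose, the hours of exposure and the number of cultures are not given in the labels used here, so the p-values measure only the spread between these libraries, which may be technical. For the Capan-1 samples the titles name Capan-1, while the cell line field reads Capable-1. Values are FPKM (fragment counts scaled to transcript length and library size), which hold no read counts, so the depth is unknown and counting intervals cannot be had. Each library had 10339 to 11531 genes at or above 1 FPKM.

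In G1 the origin recognition complex (ORC), CDC6 and CDT1 load the MCM2 to MCM7 helicase on origins, a step called licensing. At the start of S phase CDC45 and the GINS complex join the helicase, DNA polymerase alpha with its primase lays primers, and polymerases delta and epsilon extend them behind the PCNA clamp, which the RFC complex loads. FEN1 trims the flaps of Okazaki fragments, LIG1 seals the nicks, and the RPA trimer covers single-stranded DNA. E2F transcription factors, released from RB once cyclin D and cyclin E kinases are active, drive many of these genes, and nearly all proliferating tumour lines express them.

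Of the 45 genes, 39 matched a promoter in the RefSeq table of GRCh38.p14 (250 bases before to 50 bases after the gene start), and 6 (MCM4, MCM5, GINS4, RPA2, RPA3 and CCNE2) did not. The promoters were searched on both strands for the E2F words TTTCCCGC, TTTGGCGC, TTTCGCGC and TTTGCCGC. At least 1 of these words was in 20 of the 39 promoters (51.3%), against 4.44% of 15843 promoters of protein-coding genes and 3.33% of all 27305 promoters. The CCAAT box was in 23 of 39 (59%), against 36.4% of protein-coding promoters. The CHR words TTTGAA and TTCGAA were in 2 of 39 (5.13%), against 13.5%. A match of letters is a description and does not show binding. The stretches below show an E2F word lying before the gene start in MCM3, MCM6, POLA1, PCNA and E2F1. Other members hold such a word too and are not shown, among them GINS2, POLA2, TYMS, UHRF1 and POLE. Whether these words go with the response was not tested. MCM6 was called lower with siB4GALT5 and in replicates 1 and 2 of siB3GNT3 in AsPC-1, and with siB3GNT3 in Capan-1. MCM3 and PCNA were called lower in the AsPC-1 comparisons alone, POLA1 was called in none, and E2F1 moved differently in the 2 lines. Replicate 3 of siB3GNT3 in AsPC-1, in which the target was not reduced, is left out of these calls, and with it 0 genes were called. Each runs 5′ to 3′ on the strand of its gene (RefSeq, GRCh38.p14), with the E2F word in capitals. MCM3 is at chr6:52284883-52284942 (minus strand), MCM6 at chr2:135876496-135876555 (minus), POLA1 at chrX:24693755-24693814 (plus), PCNA at chr20:5126648-5126707 (minus) and E2F1 at chr20:33686405-33686444 (minus).
MCM3: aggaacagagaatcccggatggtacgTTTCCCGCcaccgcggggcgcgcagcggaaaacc
MCM6: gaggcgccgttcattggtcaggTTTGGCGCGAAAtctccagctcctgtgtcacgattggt
POLA1: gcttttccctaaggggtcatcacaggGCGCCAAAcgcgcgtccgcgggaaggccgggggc
PCNA: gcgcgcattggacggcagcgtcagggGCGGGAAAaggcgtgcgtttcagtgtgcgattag
E2F1: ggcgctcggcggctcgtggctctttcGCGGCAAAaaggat
In MCM6 the capitals span 2 overlapping words, and the MCM6, MCM3 and E2F1 promoters hold further matches not shown whole in these stretches. The matches lie 166 bases (MCM3), 78 bases (MCM6), 129 bases (POLA1), 51 bases (PCNA) and 25 bases (E2F1) before the gene start. The E2F words were in 7 of the 12 matched members called lower both with siB4GALT5 and in Capan-1, and in 2 of the 6 called in none.

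Both targets were checked in every library first. B4GALT5 was 8.70, 8.49 and 8.03 FPKM in AsPC-1 with siB4GALT5 and 38.7, 35.8 and 35.5 FPKM with siNC. It was not called with siB3GNT3 in either line. B3GNT3, which siB4GALT5 does not target, was 32.4, 30.8 and 27.9 FPKM with siB4GALT5, above all AsPC-1 siNC libraries. It was called higher there (limma, log2 fold change 0.37, adjusted p = 0.000892). B3GNT3 was 1.32, 1.67 and 1.84 FPKM in Capan-1 with siB3GNT3 and 13.3, 13.2 and 13.7 FPKM with siNC. In AsPC-1 with siB3GNT3 it was 2.53, 2.50 and 24.2 FPKM, against 22.5, 23.8 and 23.3 FPKM with siNC, so replicate 3 of this group, as labelled, showed no reduction of its target. That library was set apart. With the group as labelled, limma called 0 genes of any role or list against siNC, and the counts and log2 changes given for single roles, genes and further lists are those of replicates 1 and 2 unless they are said to be as labelled. Values per library stand in the order of replicates 1, 2 and 3, so the third siB3GNT3 value of AsPC-1 always belongs to it. With it as a group of its own, 0 of the 45 replication genes and 0% of 10804 genes differed from AsPC-1 siNC (limma, adjusted p under 0.05). At an unadjusted p under 0.05 the counts were 0 of 45 members and 1.56% of genes. Mitochondrially encoded mRNAs (13 genes) made up 18.1% to 19.5% of FPKM with siB4GALT5 and 20.1% and 19.7% in siB3GNT3 replicates 1 and 2 of AsPC-1. The library labelled replicate 3 had 24.3%, and AsPC-1 siNC had 23.8% to 24.8%. In Capan-1 the share was 13.6% to 14.4% with siB3GNT3 and 14.3% to 14.8% with siNC. This share thus moved with both knockdowns in AsPC-1, and its part in the results was not tested. KRT8, KRT18, KRT19 and EPCAM were at 23.3 FPKM or more in every library of both lines, but CDH1 was 0.109 to 0.561 FPKM across AsPC-1, against 17.4 to 25.5 FPKM across Capan-1. The 5 epithelial markers summed to 1932 to 1948 FPKM with siB4GALT5, 1640.5 to 2051 FPKM with siB3GNT3 and 2022 to 2077 FPKM with siNC in AsPC-1, and to 2980 to 3848 FPKM with siB3GNT3 and 4704 to 4932 FPKM with siNC in Capan-1. The 6 fibroblast markers summed to 70.4 to 91.4 FPKM, 79.9 to 86.9 FPKM and 80.8 to 92.6 FPKM in the same AsPC-1 groups, nearly all of it LUM, and to 80.1 to 85.7 FPKM with siB3GNT3 and 57.4 to 63.3 FPKM with siNC in Capan-1, mostly COL1A1. Of the leukocyte markers, CD68 was 48.4 to 51.4 FPKM with siB4GALT5, 43.0 to 52.2 FPKM with siB3GNT3 and 38.8 to 40.6 FPKM with siNC in AsPC-1, and 171 to 212 FPKM with siB3GNT3 and 157 to 172 FPKM with siNC in Capan-1. CD14 was at most 0.174 FPKM in AsPC-1, and in Capan-1 it was 4.18 to 5.44 FPKM with siB3GNT3 and 2.67 to 2.98 FPKM with siNC. Of 3 endothelial markers none reached 1 FPKM in AsPC-1, and PECAM1 did in Capan-1 (1.39, 1.47 and 1.0001 FPKM with siB3GNT3 and 1.23, 1.48 and 1.63 FPKM with siNC). The fibroblast marker PDGFRB was 1.99, 1.60 and 0.877 FPKM with siB3GNT3 and 0.852, 0.479 and 0.886 FPKM with siNC in Capan-1. Of the same lists, DCN, PTPRC, CD3E and CDH5 were at or near 0 in every library, so the markers of a list did not go together. The part of these marker differences in the results was not tested.

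With siB4GALT5 the replication genes of AsPC-1 were mostly lower. Of the 45, 29 fell and 0 rose (limma, adjusted p under 0.05), where 23.0% of the 10775 genes tested were called lower and 35.2% higher. The median log2 fold change was -0.29 over the members and 0.06 over all genes tested. The helicase subunit MCM6 (-1.02 ± 0.21 SE, adjusted p = 0.00278), the clamp loader subunit RFC5 (-0.90) and the thymidine kinase TK1 (-0.82) had the largest falls. Every siB4GALT5 library lay below every siNC library for 32 of the 45, against 25.5% of genes, and above for 1, RFC1, against 38.4% of genes. In bulk RNA a smaller share of cells in S phase and less of these mRNAs per cell cannot be told apart. With any 1 of the 8 libraries left out 25 of the 29 stayed called, and CCNE2, GINS1, MCM2 and ORC1 lost their call without AsPC-1 siNC replicate 3. GINS1 and ORC1 also lost it without siB4GALT5 replicate 1 or 2 or siNC replicate 1 or 2, and MCM2 without siB4GALT5 replicate 2 or siNC replicate 1. Where the set-apart library entered the spread, 17 members were called lower, against 15.1% of genes. Rescaling by median ratios gave 34 lower members and 0 higher, with 3181 lower and 3071 higher calls over all genes in place of 2477 and 3794. Rescaling to a common sum gave 24 lower members and 3 higher (ORC6, POLE and RFC1), with 1881 lower and 4576 higher calls over all genes.

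With siB3GNT3 in AsPC-1, taken as labelled, 0 of the 45 genes and 0% of 10804 genes were called by limma. At an unadjusted p under 0.05, 18 members were lower, where 27.9% of genes passed in either direction. Every siB3GNT3 library lay below every siNC library for 6 members, against 7.73% of genes, and above for 1, E2F1, against 11.0%. Replicates 1 and 2 alone gave another picture: 32 members were called lower and 1 higher, CDC6, where 20.4% of 10775 genes were called lower and 32.5% higher. These 2 libraries were kept because their target was low, so their p-values describe the libraries kept. The ribonucleotide reductase subunit RRM2 (-1.48 ± 0.07 SE, adjusted p = 1.11e-06), TK1 (-1.21) and RFC5 (-1.06) were the farthest below siNC. The median log2 fold change was -0.38 over the members and 0.07 over all genes. Both libraries lay below all siNC libraries for 35 members, against 30.7% of genes, and above for 4 (CDC6, CDT1, RFC1 and E2F1), against 45.1%. Median-ratio scaling gave 36 lower and 0 higher members, with 3018 lower and 2640 higher calls over all genes in place of 2193 and 3504. A common sum gave 27 lower and 3 higher (CDC6, RFC1 and E2F1), with 1675 and 4355 calls over all genes.

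With siB3GNT3 in Capan-1, 18 of the 45 genes fell and 3 rose, where 14.2% of 11493 genes were called lower and 18.7% higher. Cyclin E1 (CCNE1, -1.14 ± 0.15 SE, adjusted p = 0.00148) and RRM2 (-1.001 ± 0.18 SE, adjusted p = 0.00508) had the largest falls, and the licensing factors CDT1 (0.48) and ORC6 (0.40) and the RPA subunit RPA2 (0.32) rose. The median log2 fold change was -0.24 over the members and 0.02 over all genes. The siB3GNT3 libraries all lay below the siNC libraries for 25 members, against 22.1% of genes, and above for the same 3 that rose, against 28.0%. With any 1 of the 6 libraries left out 12 of the 21 calls held: CCNE1, CDC45, CDT1, CHAF1A, E2F1, FEN1, GINS2, MCM6, MCM7, POLA2, RRM2 and TYMS. The members called were 13, 15 and 14 without siNC replicate 1, 2 or 3 of Capan-1, and 17, 19 and 29 without siB3GNT3 replicate 1, 2 or 3. Median-ratio scaling gave 22 lower and 3 higher members, with 2079 lower and 1781 higher calls over all genes in place of 1634 and 2152, and a common sum gave 16 and 3, with 1404 and 2455.

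**Figure D1:**
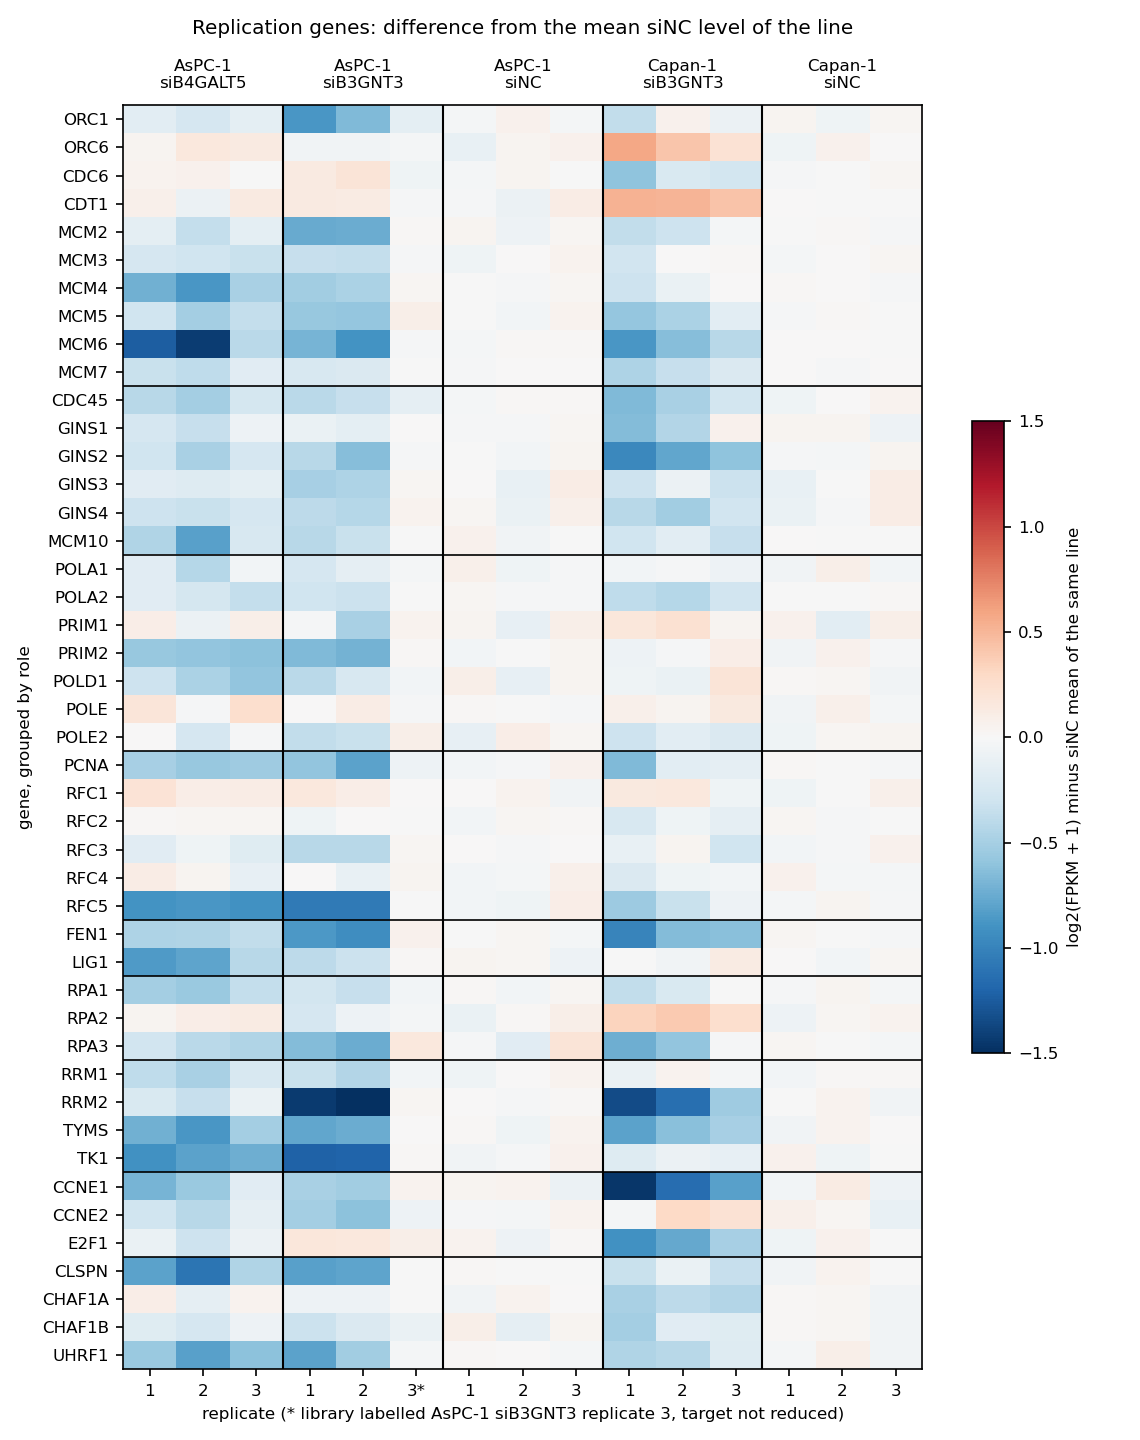
Each row is 1 of the 45 replication genes, grouped by role, and each column 1 of the 15 libraries; colour gives log2(FPKM + 1) minus the siNC mean of the same line, from blue (lower) to red (higher). Most rows are blue with siB4GALT5 and in siB3GNT3 replicates 1 and 2 of AsPC-1, the column marked 3* (the library labelled replicate 3, whose target was not reduced) is near white, and CDT1, ORC6 and RPA2 are red in Capan-1 with siB3GNT3.

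The libraries of a group differed in how far they moved. The median difference of the 45 genes from the siNC mean was -0.29, -0.38 and -0.18 on the log2 scale with siB4GALT5, and -0.41, -0.41 and 0.00 with siB3GNT3 in AsPC-1. In Capan-1 it was -0.37, -0.16 and -0.13 with siB3GNT3. Replicate 3 of siB4GALT5 was the nearest of its group to siNC for 27 of the 45 genes, against 41.4% of all genes tested. Replicate 3 of Capan-1 siB3GNT3 was also the nearest for 27 of 45, against 47.2%. Summed, the 45 genes made up 0.238% to 0.277% of FPKM with siB4GALT5, 0.230% and 0.229% in siB3GNT3 replicates 1 and 2, 0.310% in the library labelled replicate 3 and 0.310% to 0.319% with siNC. In Capan-1 they made up 0.275% to 0.320% with siB3GNT3 and 0.350% to 0.359% with siNC.

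**Figure D2:**
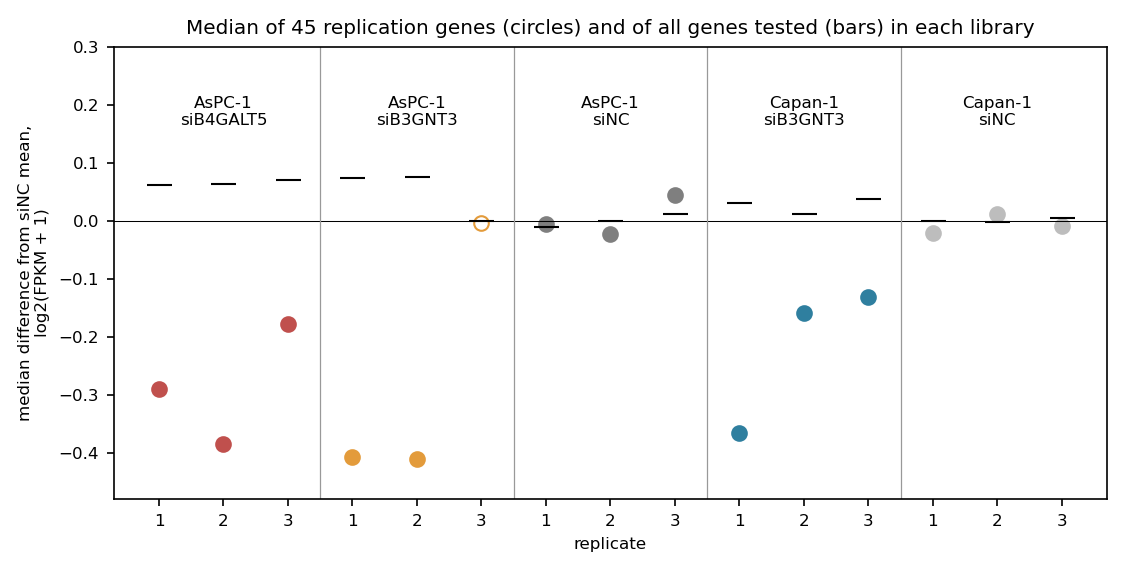
Circles give, for each library, the median over the 45 replication genes of log2(FPKM + 1) minus the siNC mean of the line (for an siNC library, the mean of the other siNC libraries), and bars give the same over all genes tested. The circles of the knockdown libraries lie between -0.41 and -0.13, below their bars, except the open circle of the set-apart library in AsPC-1, which lies at the siNC level.

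The licensing genes were mostly lower in AsPC-1 with siB4GALT5 and in siB3GNT3 replicates 1 and 2. Of the 10 genes 7 fell with siB4GALT5 (ORC1 and MCM2 to MCM7) and 7 were called lower and 1 higher (CDC6) in siB3GNT3 replicates 1 and 2. Taken as labelled, the siB3GNT3 group had a median log2 change of -0.28 for this role and 0 calls. In Capan-1 4 fell (CDC6, MCM5, MCM6 and MCM7) and 2 rose (ORC6 and CDT1). MCM4, a subunit of the helicase core, had 49.9, 44.9 and 59.0 FPKM with siB4GALT5, 57.3, 59.1 and 84.6 FPKM with siB3GNT3 and 82.6, 81.4 and 84.4 FPKM with siNC in AsPC-1. All siB4GALT5 values, and those of siB3GNT3 replicates 1 and 2, were below the siNC values. Its log2 fold change was -0.69 ± 0.09 (SE, adjusted p = 0.000122) with siB4GALT5 and -0.50 ± 0.10 (SE, adjusted p = 0.00188) in siB3GNT3 replicates 1 and 2. In Capan-1 MCM4 had 43.7, 50.9 and 54.7 FPKM with siB3GNT3 and 55.2, 54.8 and 53.8 FPKM with siNC, with overlapping groups and a log2 change of -0.14 ± 0.09 (SE, adjusted p = 0.247). MCM5, another helicase subunit, had 20.9, 17.8 and 20.0 FPKM with siB4GALT5, 17.2, 17.0 and 27.5 FPKM with siB3GNT3 and 25.7, 25.2 and 26.8 FPKM with siNC in AsPC-1, again without overlap once the set-apart library was left out. In Capan-1 it had 20.6, 22.3 and 28.1 FPKM with siB3GNT3 and 31.0, 31.8 and 31.4 FPKM with siNC, where all 3 siB3GNT3 libraries were lower. The log2 fold changes of MCM5 were -0.39, -0.57 and -0.40 (adjusted p = 0.000698, 0.000166 and 0.0219) with siB4GALT5, in siB3GNT3 replicates 1 and 2, and in Capan-1.

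MCM6, whose promoter stretch above holds overlapping E2F words, showed a wide spread with siB4GALT5. It had 17.4, 15.2 and 31.8 FPKM with siB4GALT5, 25.7, 22.3 and 41.7 FPKM with siB3GNT3 and 41.4, 42.8 and 42.7 FPKM with siNC in AsPC-1, so replicate 3 of siB4GALT5 kept the most transcript of that group and was still below siNC. In Capan-1 MCM6 had 21.6, 25.8 and 30.2 FPKM with siB3GNT3 and 40.8, 40.7 and 40.4 FPKM with siNC, a log2 change of -0.64 ± 0.11 (SE, adjusted p = 0.00397). MCM3, with an E2F word as well, differed by -0.29 ± 0.05 (SE, adjusted p = 0.000864) with siB4GALT5 and by -0.09 ± 0.09 (SE, adjusted p = 0.483) in Capan-1. The promoters of CDC6, CDT1, MCM2 and MCM7 also held an E2F word, and those of ORC1 and ORC6 did not. Among the loaders, CDT1, ORC6 and CDC6 were not called lower in AsPC-1, while ORC1 was, with siB4GALT5 and in siB3GNT3 replicates 1 and 2. CDT1, which brings the helicase to ORC, had 19.2, 17.0 and 19.9 FPKM with siB4GALT5, 20.1, 19.7 and 17.8 FPKM with siB3GNT3 and 17.8, 17.0 and 19.6 FPKM with siNC in AsPC-1. There siB4GALT5 overlapped siNC, while siB3GNT3 replicates 1 and 2 lay just above it without a call (0.13 ± 0.08 SE, adjusted p = 0.214). In Capan-1 CDT1 had 19.8, 19.7 and 18.5 FPKM with siB3GNT3 and 13.7, 13.5 and 13.5 FPKM with siNC, all siB3GNT3 libraries above all siNC libraries, a log2 change of 0.48 ± 0.06 (SE, adjusted p = 0.00132). ORC6, the smallest ORC subunit, had 23.4, 20.9 and 18.1 FPKM with siB3GNT3 and 14.6, 16.2 and 15.4 FPKM with siNC in Capan-1, also without overlap, a log2 change of 0.40 ± 0.10 (SE, adjusted p = 0.0154). In AsPC-1 ORC6 had 32.9, 35.9 and 35.3 FPKM with siB4GALT5, 30.9, 30.9 and 31.4 FPKM with siB3GNT3 and 29.6, 33.2 and 33.6 FPKM with siNC, with overlap. CDC6, the ATPase that loads the helicase with CDT1, had 18.5, 24.4 and 23.5 FPKM with siB3GNT3 and 28.2, 28.6 and 29.1 FPKM with siNC in Capan-1, where it fell (-0.37 ± 0.10 SE, adjusted p = 0.0249). In AsPC-1 CDC6 had 16.2, 16.4 and 15.6 FPKM with siB4GALT5, 17.2, 18.0 and 14.9 FPKM with siB3GNT3 and 15.2, 16.01 and 15.5 FPKM with siNC, and siB3GNT3 replicates 1 and 2 were called higher (0.16 ± 0.06 SE, adjusted p = 0.0383). The median-ratio scaling removed that last call. Of the other licensing genes, ORC1, the largest ORC subunit, had log2 fold changes of -0.19, -0.77 and -0.13, and the helicase subunits MCM2 and MCM7 of -0.22, -0.75 and -0.24 and of -0.30, -0.23 and -0.34, with siB4GALT5, in siB3GNT3 replicates 1 and 2 and in Capan-1.

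Most of the helicase activators fell in both lines. With siB4GALT5 5 of the 6 genes fell (CDC45, GINS1, GINS2, GINS4 and MCM10), 5 were called lower in siB3GNT3 replicates 1 and 2 (GINS3 in place of GINS1), and 4 fell in Capan-1 (CDC45, GINS2, GINS4 and MCM10). CDC45, which binds the loaded helicase at the start of S phase, had 10.3, 9.69 and 11.6 FPKM with siB4GALT5, 10.4, 10.9 and 12.8 FPKM with siB3GNT3 and 13.8, 14.3 and 14.4 FPKM with siNC in AsPC-1. It had 10.7, 12.2 and 14.3 FPKM with siB3GNT3 and 16.7, 17.6 and 18.2 FPKM with siNC in Capan-1. In neither line did the knockdown libraries with a reduced target overlap siNC. Its log2 fold changes were -0.40 ± 0.07 (SE, adjusted p = 0.000955) with siB4GALT5 and -0.48 ± 0.10 (SE, adjusted p = 0.00965) in Capan-1. GINS4, a subunit of the GINS complex, had 8.55, 8.42 and 8.97 FPKM with siB4GALT5, 8.03, 7.84 and 11.3 FPKM with siB3GNT3 and 11.1, 10.02 and 11.5 FPKM with siNC in AsPC-1. In Capan-1 it had 5.35, 4.90 and 5.93 FPKM with siB3GNT3 and 6.91, 7.35 and 8.12 FPKM with siNC, and in both lines all knockdown libraries with a reduced target were below siNC. GINS2, another GINS subunit, had 4.59, 5.34 and 6.17 FPKM with siB3GNT3 and 9.81, 9.73 and 10.2 FPKM with siNC in Capan-1, the largest fall of this role there (-0.79 ± 0.10 SE, adjusted p = 0.00105). In AsPC-1 GINS2 had 9.09, 7.90 and 9.42 FPKM with siB4GALT5, 8.33, 7.01 and 11.4 FPKM with siB3GNT3 and 11.4, 11.1 and 11.8 FPKM with siNC, and fell by 0.35 on the log2 scale with siB4GALT5 (adjusted p = 0.00490). MCM10, a helicase activator outside the ring, differed by -0.50 with siB4GALT5, -0.38 in siB3GNT3 replicates 1 and 2 and -0.27 in Capan-1 (adjusted p = 0.00694, 0.0461 and 0.0237). The GINS subunits GINS1 and GINS3 differed by -0.22, -0.12 and -0.34 and by -0.17, -0.48 and -0.24 in the same order.

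The polymerase and primase genes were divided. With siB4GALT5 3 of 7 fell (POLA2, PRIM2 and POLD1), 4 were called lower in siB3GNT3 replicates 1 and 2 (POLE2 too), and 2 fell in Capan-1 (POLA2 and POLE2). PRIM2, the large primase subunit, had 2.48, 2.42 and 2.39 FPKM with siB4GALT5, 2.27, 2.16 and 4.23 FPKM with siB3GNT3 and 4.05, 4.17 and 4.32 FPKM with siNC in AsPC-1. These levels were low, but the groups were far apart, and the log2 fold change was -0.59 ± 0.06 (SE, adjusted p = 5.02e-05) with siB4GALT5 and -0.69 ± 0.07 (SE, adjusted p = 5.23e-05) in siB3GNT3 replicates 1 and 2. In Capan-1 PRIM2 had 4.50, 4.75 and 5.23 FPKM with siB3GNT3 and 4.63, 5.10 and 4.73 FPKM with siNC, with overlap and a log2 change of 0.00 ± 0.08 (SE, adjusted p = 0.990). POLD1, the catalytic subunit of polymerase delta, had 11.8, 10.5 and 9.51 FPKM with siB4GALT5, 11.0, 12.5 and 14.4 FPKM with siB3GNT3 and 15.8, 13.6 and 15.3 FPKM with siNC in AsPC-1, where it fell with siB4GALT5 (-0.46 ± 0.09 SE, adjusted p = 0.00183). In Capan-1 POLD1 had 15.01, 14.6 and 18.2 FPKM with siB3GNT3 and 15.96, 16.1 and 15.2 FPKM with siNC, and the groups overlapped (0.01 ± 0.09 SE, adjusted p = 0.947). POLA2, the accessory subunit of polymerase alpha, had 9.23, 8.96 and 9.92 FPKM with siB3GNT3 and 12.3, 12.3 and 12.5 FPKM with siNC in Capan-1, without overlap (-0.37 ± 0.07 SE, adjusted p = 0.00577). In AsPC-1 it had 12.9, 11.997 and 11.2 FPKM with siB4GALT5, 11.6, 11.4 and 14.5 FPKM with siB3GNT3 and 14.9, 14.4 and 14.4 FPKM with siNC, a log2 change of -0.26 ± 0.06 (SE, adjusted p = 0.00521) with siB4GALT5. The catalytic subunits POLA1 and POLE and the small primase subunit PRIM1 were called in none of these comparisons: POLA1 had log2 fold changes of -0.21, -0.20 and -0.05, POLE of 0.14, 0.06 and 0.09, and PRIM1 of 0.03, -0.25 and 0.15, in the order siB4GALT5, siB3GNT3 replicates 1 and 2, and Capan-1. POLE2, the second subunit of polymerase epsilon, had -0.09, -0.35 and -0.23 in that order. Under median-ratio scaling POLA1 passed with siB4GALT5 and PRIM1 in siB3GNT3 replicates 1 and 2, both lower, and under a common sum POLE was called higher with siB4GALT5.

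Among the clamp and its loader, 2 genes stood apart from the rest. PCNA and RFC5 fell with siB4GALT5, PCNA, RFC3 and RFC5 were called lower in siB3GNT3 replicates 1 and 2, and 0 of the 6 genes was called in Capan-1. PCNA, the sliding clamp and the member with the highest level in siNC cells of both lines, had 92.7, 88.6 and 90.5 FPKM with siB4GALT5, 86.7, 75.1 and 125 FPKM with siB3GNT3 and 127, 129.7 and 138 FPKM with siNC in AsPC-1. It averaged 90.6 ± 2.02 FPKM with siB4GALT5 and 132 ± 5.43 FPKM with siNC (SD, n = 3 each), a log2 change of -0.53 ± 0.06 (SE, adjusted p = 7.12e-05). In Capan-1 PCNA had 119.7, 169 and 173 FPKM with siB3GNT3 and 191, 189 and 188 FPKM with siNC. All 3 siB3GNT3 libraries were lower there, replicate 1 far more than the others, and the log2 fold change of -0.32 ± 0.13 (SE, adjusted p = 0.0940) missed the threshold. RFC5, a small loader subunit, had 10.3, 10.4 and 10.2 FPKM with siB4GALT5, 9.07, 9.10 and 19.9 FPKM with siB3GNT3 and 19.5, 19.2 and 21.6 FPKM with siNC in AsPC-1, about level within each knockdown group. Its log2 fold changes were -0.90 ± 0.06 (SE, adjusted p = 2.94e-06) and -1.06 ± 0.07 (SE, adjusted p = 3.75e-06) with siB4GALT5 and in siB3GNT3 replicates 1 and 2. In Capan-1 RFC5 had 6.16, 7.29 and 8.90 FPKM with siB3GNT3 and 9.25, 9.76 and 9.35 FPKM with siNC, a log2 change of -0.32 ± 0.11 (SE, adjusted p = 0.0633). RFC3, another small subunit, had log2 fold changes of -0.14, -0.41 and -0.12 with siB4GALT5, in siB3GNT3 replicates 1 and 2 and in Capan-1. The large loader subunit RFC1 and the small subunits RFC2 and RFC4 lay between -0.15 and 0.14 in the 3 comparisons without a call, although RFC1 was called higher with siB4GALT5 and in siB3GNT3 replicates 1 and 2 under a common sum and RFC2 lower in siB3GNT3 replicates 1 and 2 under median ratios.

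Both genes that finish Okazaki fragments fell with siB4GALT5 and were called lower in siB3GNT3 replicates 1 and 2, and FEN1 fell in Capan-1. FEN1, the flap nuclease, had 47.3, 47.8 and 50.7 FPKM with siB4GALT5, 35.6, 33.8 and 68.9 FPKM with siB3GNT3 and 65.5, 66.9 and 64.3 FPKM with siNC in AsPC-1. It had 35.8, 45.7 and 46.3 FPKM with siB3GNT3 and 73.8, 71.9 and 71.1 FPKM with siNC in Capan-1. Every knockdown library with a reduced target was below siNC, with log2 fold changes of -0.43 ± 0.05 (SE, adjusted p = 7.91e-05) with siB4GALT5, -0.90 ± 0.05 (SE, adjusted p = 3.04e-06) in siB3GNT3 replicates 1 and 2 and -0.76 ± 0.10 (SE, adjusted p = 0.00128) in Capan-1. LIG1, the ligase that seals the nicks, had 9.40, 9.89 and 13.1 FPKM with siB4GALT5, 13.3, 14.0 and 18.1 FPKM with siB3GNT3 and 18.3, 18.2 and 16.8 FPKM with siNC in AsPC-1, where siB4GALT5 replicate 3 was the nearest of its group to siNC. The log2 fold change was -0.69 ± 0.10 (SE, adjusted p = 0.000442) with siB4GALT5. In Capan-1 LIG1 had 19.4, 18.7 and 21.2 FPKM with siB3GNT3 and 19.5, 18.8 and 19.9 FPKM with siNC, with overlap (0.03 ± 0.07 SE, adjusted p = 0.803). Of the RPA trimer, RPA1 and RPA3 fell with siB4GALT5 and RPA2 did not pass. RPA1, the large subunit, had 28.4, 27.4 and 31.6 FPKM with siB4GALT5, 33.6, 31.9 and 39.6 FPKM with siB3GNT3 and 41.3, 39.8 and 41.6 FPKM with siNC in AsPC-1, a log2 change of -0.48 ± 0.06 (SE, adjusted p = 0.000151) with siB4GALT5. In Capan-1 it had 14.5, 15.9 and 18.8 FPKM with siB3GNT3 and 18.7, 19.5 and 18.6 FPKM with siNC (-0.20 ± 0.09 SE, adjusted p = 0.131). RPA3, the small subunit, had 6.57, 5.98 and 5.75 FPKM with siB4GALT5, 4.88, 4.54 and 9.30 FPKM with siB3GNT3 and 8.12, 7.22 and 9.59 FPKM with siNC in AsPC-1 (-0.38 ± 0.09 SE, adjusted p = 0.00670 with siB4GALT5). In Capan-1 RPA3 had 8.95, 9.90 and 15.2 FPKM with siB3GNT3 and 15.9, 15.3 and 15.2 FPKM with siNC. Replicate 3 of Capan-1 siB3GNT3 was at the siNC level for RPA3, and the log2 fold change there was -0.45 ± 0.16 (SE, adjusted p = 0.0663). RPA2, the middle subunit, had 32.5, 33.9 and 30.7 FPKM with siB3GNT3 and 24.3, 26.2 and 26.6 FPKM with siNC in Capan-1, all siB3GNT3 libraries above siNC (0.32 ± 0.07 SE, adjusted p = 0.00979). In AsPC-1 RPA2 had 25.5, 26.7 and 27.2 FPKM with siB4GALT5, 20.6, 23.6 and 24.3 FPKM with siB3GNT3 and 23.1, 25.2 and 26.4 FPKM with siNC, with overlapping groups.

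All 4 genes of nucleotide supply fell with siB4GALT5 and were called lower in siB3GNT3 replicates 1 and 2, and RRM2 and TYMS fell in Capan-1. RRM2, the subunit of ribonucleotide reductase whose amount limits the enzyme in S phase, had 99.0, 90.8 and 109 FPKM with siB4GALT5, 42.3, 39.5 and 119 FPKM with siB3GNT3 and 116, 115 and 117 FPKM with siNC in AsPC-1. Its level with siB4GALT5 was just under siNC, and in siB3GNT3 replicates 1 and 2 it was far lower. The log2 fold changes were -0.22 ± 0.06 (SE, adjusted p = 0.0149) and -1.48 ± 0.07 (SE, adjusted p = 1.11e-06). The first of these lost its call under a common sum and where the set-apart library entered the spread. In Capan-1 RRM2 had 27.6, 32.2 and 49.3 FPKM with siB3GNT3 and 71.3, 74.3 and 69.2 FPKM with siNC, all siB3GNT3 libraries lower (-1.001 ± 0.18 SE, adjusted p = 0.00508). RRM1, the partner subunit, differed by -0.37, -0.38 and -0.03 with siB4GALT5, in siB3GNT3 replicates 1 and 2 and in Capan-1. TK1, the salvage kinase for thymidine, had 39.6, 42.6 and 44.8 FPKM with siB4GALT5, 31.9, 32.2 and 76.0 FPKM with siB3GNT3 and 72.5, 74.4 and 78.9 FPKM with siNC in AsPC-1. The log2 fold changes were -0.82 ± 0.06 (SE, adjusted p = 4.27e-06) with siB4GALT5 and -1.21 ± 0.06 (SE, adjusted p = 1.57e-06) in siB3GNT3 replicates 1 and 2. In Capan-1 TK1 had 78.5, 84.1 and 82.2 FPKM with siB3GNT3 and 93.8, 85.8 and 89.1 FPKM with siNC, lower in all 3 siB3GNT3 libraries by little (-0.13 ± 0.06 SE, adjusted p = 0.135). TYMS, which makes thymidylate from deoxyuridylate, had 49.7, 44.7 and 57.5 FPKM with siB4GALT5, 47.6, 48.8 and 82.8 FPKM with siB3GNT3 and 83.3, 78.7 and 85.8 FPKM with siNC in AsPC-1. In Capan-1 it had 29.8, 33.8 and 36.9 FPKM with siB3GNT3 and 50.6, 54.5 and 52.6 FPKM with siNC. Its log2 fold changes of -0.70, -0.76 and -0.64 were close to one another (adjusted p = 8.99e-05, 0.000136 and 0.00141 with siB4GALT5, in siB3GNT3 replicates 1 and 2, and in Capan-1).

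**Figure D3:**
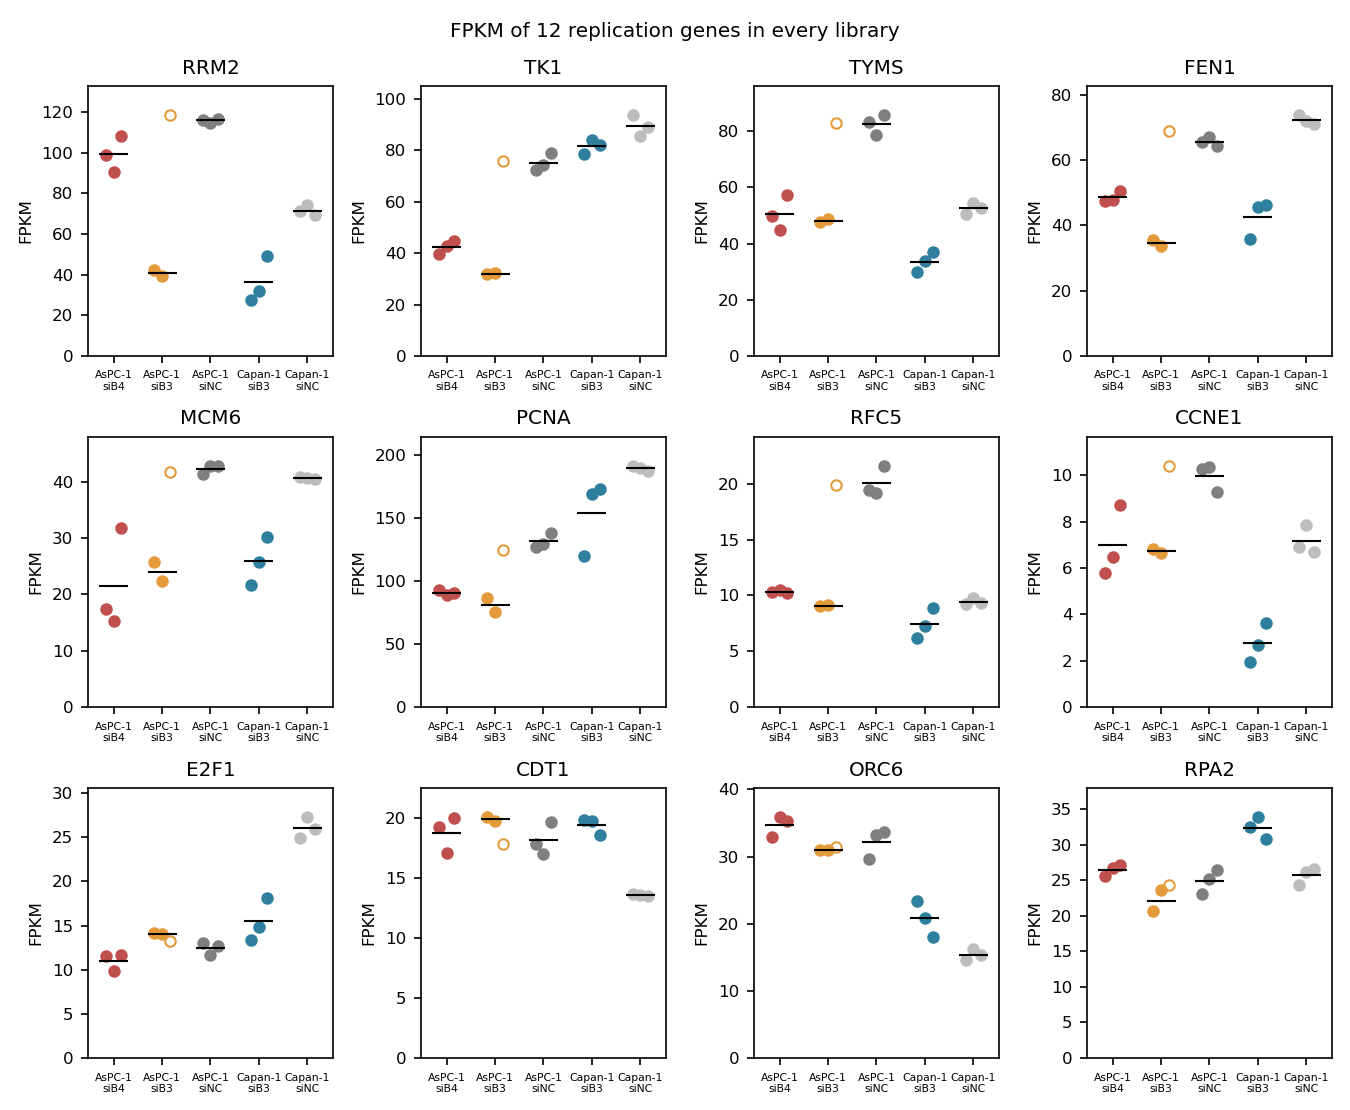
FPKM of 12 replication genes in each library, by group (siB4, siB4GALT5; siB3, siB3GNT3); points are libraries, lines are group means, and the open point is the set-apart library of AsPC-1, left out of its group's line. Within AsPC-1, RRM2 and TK1 are lowest in siB3GNT3 replicates 1 and 2, and CDT1, ORC6 and RPA2 are higher with siB3GNT3 than with siNC in Capan-1.

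Of the 3 regulators of the G1 to S step, CCNE1 and CCNE2 fell with siB4GALT5 and were called lower in siB3GNT3 replicates 1 and 2, and CCNE1 and E2F1 fell in Capan-1. CCNE1, the cyclin that activates CDK2 at this step, had 5.78, 6.49 and 8.72 FPKM with siB4GALT5, 6.81, 6.67 and 10.4 FPKM with siB3GNT3 and 10.3, 10.4 and 9.29 FPKM with siNC in AsPC-1, a log2 change of -0.47 ± 0.12 (SE, adjusted p = 0.00702) with siB4GALT5. In Capan-1 CCNE1 had 1.96, 2.68 and 3.64 FPKM with siB3GNT3 and 6.90, 7.88 and 6.71 FPKM with siNC, the largest fall of the 45 genes there (-1.14 ± 0.15 SE, adjusted p = 0.00148). CCNE2, the second E-type cyclin, had 6.91, 6.28 and 7.86 FPKM with siB4GALT5, 5.84, 5.33 and 8.20 FPKM with siB3GNT3 and 8.56, 8.48 and 9.08 FPKM with siNC in AsPC-1 (-0.28 ± 0.08 SE, adjusted p = 0.0139 with siB4GALT5). In Capan-1 it had 5.05, 6.57 and 6.16 FPKM with siB3GNT3 and 5.52, 5.28 and 4.72 FPKM with siNC, with overlap (0.16 ± 0.10 SE, adjusted p = 0.252). E2F1, an activating E2F factor and itself an E2F target, had 13.4, 14.9 and 18.2 FPKM with siB3GNT3 and 24.9, 27.3 and 25.9 FPKM with siNC in Capan-1, where it fell (-0.73 ± 0.11 SE, adjusted p = 0.00210). In AsPC-1 E2F1 had 11.6, 9.81 and 11.6 FPKM with siB4GALT5, 14.1, 14.0 and 13.3 FPKM with siB3GNT3 and 13.0, 11.7 and 12.6 FPKM with siNC. All siB4GALT5 libraries lay below siNC and all siB3GNT3 libraries above it. E2F1 was called neither with siB4GALT5 (-0.17 ± 0.07 SE, adjusted p = 0.0795) nor in siB3GNT3 replicates 1 and 2 (0.17 ± 0.08 SE, adjusted p = 0.120). Under median ratios it was called lower with siB4GALT5, and under a common sum higher in siB3GNT3 replicates 1 and 2.

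Among the fork and chromatin genes, CLSPN and UHRF1 fell with siB4GALT5 and were called lower in siB3GNT3 replicates 1 and 2. CHAF1B was called lower in those replicates and not with siB4GALT5. It lost that call under a common sum, and under median ratios it was also called lower with siB4GALT5 and in Capan-1. As deposited, CLSPN, UHRF1 and CHAF1A fell in Capan-1. CLSPN, the adaptor that passes the signal of ATR to CHEK1, had 3.79, 2.92 and 5.12 FPKM with siB4GALT5, 3.76, 3.87 and 7.38 FPKM with siB3GNT3 and 7.51, 7.34 and 7.33 FPKM with siNC in AsPC-1, with log2 fold changes of -0.79 ± 0.13 (SE, adjusted p = 0.000849) with siB4GALT5 and -0.80 ± 0.15 (SE, adjusted p = 0.00173) in siB3GNT3 replicates 1 and 2. In Capan-1 CLSPN had 6.80, 8.11 and 6.70 FPKM with siB3GNT3 and 8.46, 9.17 and 8.77 FPKM with siNC (-0.26 ± 0.09 SE, adjusted p = 0.0494). UHRF1, which brings DNMT1 to newly copied DNA, had 23.2, 19.4 and 22.4 FPKM with siB4GALT5, 19.5, 24.0 and 34.1 FPKM with siB3GNT3 and 35.2, 34.9 and 34.2 FPKM with siNC in AsPC-1. In Capan-1 it had 13.1, 13.4 and 15.7 FPKM with siB3GNT3 and 17.7, 19.4 and 17.4 FPKM with siNC. No knockdown library with a reduced target overlapped siNC for UHRF1, and the log2 fold changes were -0.66 ± 0.09 (SE, adjusted p = 0.000170) with siB4GALT5 and -0.35 ± 0.09 (SE, adjusted p = 0.0170) in Capan-1. CHAF1A, the large subunit of the histone chaperone CAF-1, had 8.30, 8.88 and 8.58 FPKM with siB3GNT3 and 12.2, 12.3 and 11.5 FPKM with siNC in Capan-1, a tight and separate group (-0.44 ± 0.07 SE, adjusted p = 0.00258). In AsPC-1 CHAF1A had 16.8, 14.1 and 16.2 FPKM with siB4GALT5, 14.8, 14.7 and 15.6 FPKM with siB3GNT3 and 15.003, 16.2 and 15.6 FPKM with siNC, with siB4GALT5 overlapping siNC and siB3GNT3 replicates 1 and 2 just below it, without a call (-0.07 ± 0.08 SE, adjusted p = 0.441). CHAF1B, the middle subunit of CAF-1 and the member with the lowest mean level in AsPC-1 siNC cells, had log2 fold changes of -0.17, -0.27 and -0.29 with siB4GALT5, in siB3GNT3 replicates 1 and 2 and in Capan-1.

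**Figure D4:**
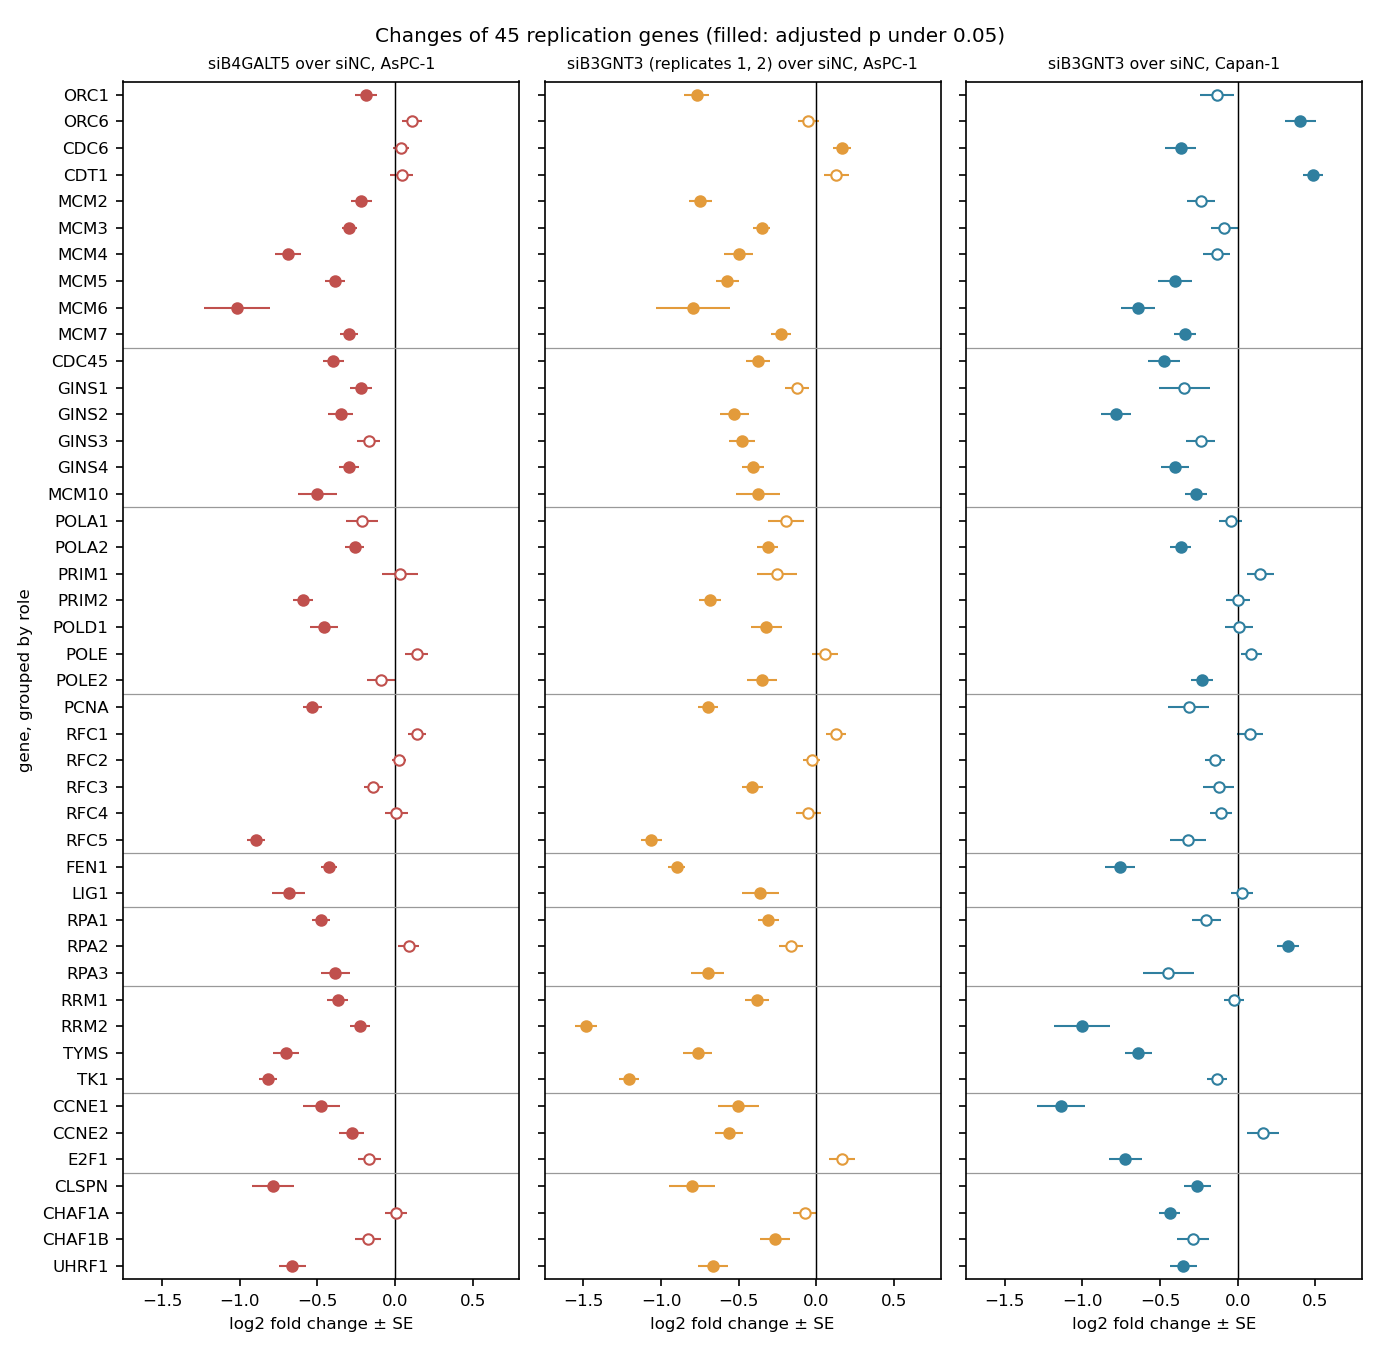
Log2 fold changes of the 45 genes on log2(FPKM + 1), with standard errors, for siB4GALT5 against siNC in AsPC-1 (left), siB3GNT3 replicates 1 and 2 against siNC in AsPC-1 (middle) and siB3GNT3 against siNC in Capan-1 (right); filled points have an adjusted p under 0.05 in limma. Filled points lie left of 0 for 29, 32 and 18 genes, and right of 0 for 0, 1 and 3.

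The AsPC-1 comparisons share their siNC libraries, so their values stand side by side in the paragraphs above, and overlaps are given only with Capan-1, which shares no library with them. Called lower both with siB4GALT5 in AsPC-1 and with siB3GNT3 in Capan-1 were 14 genes: MCM5, MCM6, MCM7, CDC45, GINS2, GINS4, MCM10, POLA2, FEN1, RRM2, TYMS, CCNE1, CLSPN and UHRF1. They were 48.3% of the 29 called with siB4GALT5 and 77.8% of the 18 in Capan-1. Among them MCM5, GINS4, MCM10, CLSPN and UHRF1 lost their Capan-1 call with at least 1 of the Capan-1 libraries left out. Of all 45 genes 64.4% were called lower with siB4GALT5, and 18 of the 45 in Capan-1. Over the 10068 genes tested in both fits the 548 genes called lower in both were 23.4% of 2343 and 35.9% of 1527. Called lower both in siB3GNT3 replicates 1 and 2 and in Capan-1 were 15 members, 46.9% of 32 and 83.3% of 18, where 71.1% of the members were called lower in those replicates. Over all genes the 586 shared were 28.0% of 2091 and 38.4% of 1527. With the siB3GNT3 group of AsPC-1 as labelled the overlap was 0. Another 6 genes (POLA1, PRIM1, POLE, RFC1, RFC2 and RFC4) were called neither with siB4GALT5, nor in siB3GNT3 replicates 1 and 2, nor in Capan-1. Across the 45 genes, the log2 fold changes with siB4GALT5 in AsPC-1 and with siB3GNT3 in Capan-1 had a Pearson r of 0.36 and a Spearman rho of 0.37, against 0.35 and 0.32 across all 10068 genes. Those of siB3GNT3 in AsPC-1 (replicates 1 and 2) and in Capan-1 had an r of 0.43 and a rho of 0.37, against 0.42 and 0.40 across all genes. As labelled, the r was 0.41 and the rho 0.36, against 0.41 and 0.39 across 10085 genes. The members' correlations were thus near those of all genes. These are correlations across genes, which are not independent replicates, and the libraries of a comparison are shared by all its genes.

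Whether the response to siB3GNT3 differed between the lines was tested as an interaction, AsPC-1 minus Capan-1. With all 15 libraries as labelled 3 of the 45 genes had a higher response in AsPC-1 (CDC6, E2F1 and CHAF1A) and 3 a lower one (ORC6, CDT1 and RPA2), where 5.40% of 12247 genes were called higher and 4.43% lower. E2F1 differed most (0.86 ± 0.14 SE, adjusted p = 0.00183), and it was the only one of the 6 whose call held with each library left out in turn. The other 5 each lost their call without at least 1 library, and all 5 did so without AsPC-1 siNC replicate 3 and without Capan-1 siNC replicate 1. Median-ratio scaling removed the calls of CDC6 and CHAF1A, and a common sum those of ORC6 and CDT1. Without the set-apart library 4 genes were called higher and 11 lower, against 19.0% and 13.8% of 12236 genes. TK1 (-1.07 ± 0.09 SE, adjusted p = 3.27e-06), RFC5 (-0.74 ± 0.14 SE, adjusted p = 0.00137), CCNE2 (-0.72 ± 0.14 SE, adjusted p = 0.00174) and PRIM2 (-0.69 ± 0.10 SE, adjusted p = 0.000175) were then among the genes lower in AsPC-1 relative to Capan-1, and E2F1 (0.89 ± 0.14 SE, adjusted p = 0.000439), CCNE1 (0.63 ± 0.22 SE, adjusted p = 0.0418), CDC6 (0.53) and CHAF1A (0.36) were higher. Median ratios gave 19 lower and 3 higher members in that fit, with 2154 lower and 1912 higher calls over all genes in place of 1690 and 2319. RRM2, TYMS, FEN1 and MCM6 differed by -0.48, -0.12, -0.14 and -0.15 without a call (adjusted p = 0.108, 0.504, 0.392 and 0.721), which does not show that the lines responded alike.

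**Figure D5:**
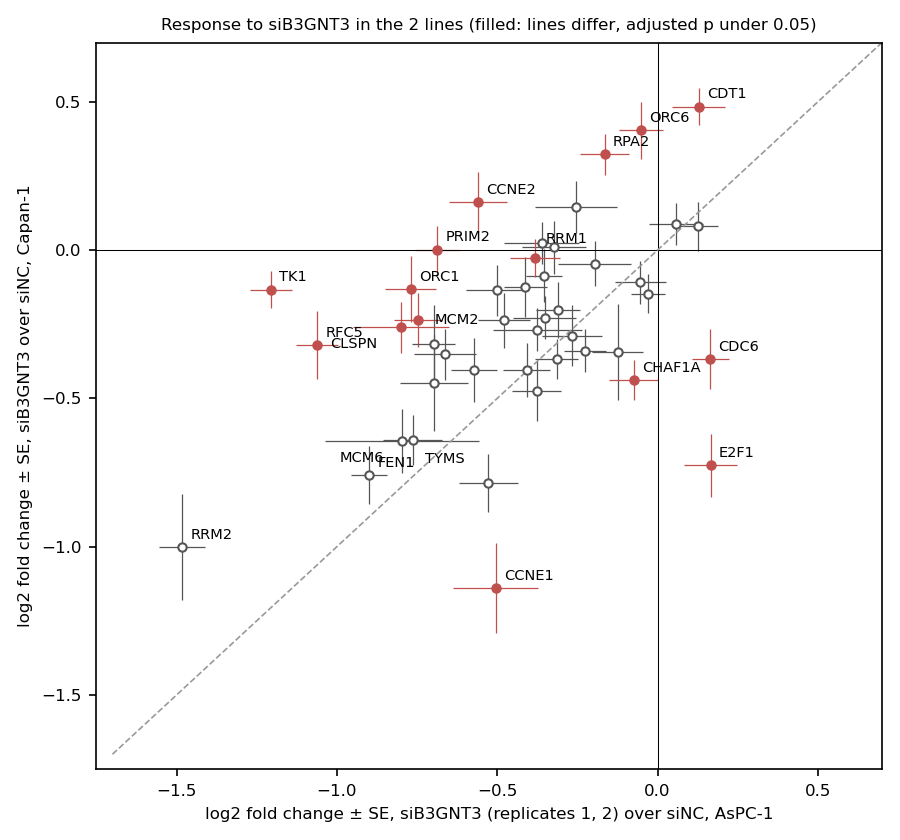
Each point is 1 of the 45 genes: its log2 fold change with standard error in siB3GNT3 replicates 1 and 2 over siNC in AsPC-1 (x) and with siB3GNT3 over siNC in Capan-1 (y); the dashed line marks equal changes, and filled points have an interaction past an adjusted p of 0.05 once the set-apart library is left out. TK1 and RFC5 lie far to the left of the dashed line, and E2F1 and CCNE1 below it.

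Set directly against each other in AsPC-1, siB4GALT5 and siB3GNT3 as labelled differed in 1 of the 45 genes, E2F1, which was lower with siB4GALT5 (-0.31 ± 0.08 SE, adjusted p = 0.0399). Over all 10804 genes 8.27% were called higher and 7.61% lower. The call of E2F1 fell away without any single library other than siB3GNT3 replicate 3 or siB4GALT5 replicate 3. Against siB3GNT3 replicates 1 and 2 alone 10 genes were higher and 1 lower with siB4GALT5, where 17.8% and 17.4% of genes were called. RRM2 was the farthest apart (1.26 ± 0.07 SE, adjusted p = 4.07e-06), followed by ORC1 (0.58 ± 0.08 SE, adjusted p = 0.000539), MCM2 (0.53 ± 0.08 SE, adjusted p = 0.000691) and FEN1 (0.47 ± 0.05 SE, adjusted p = 0.000222). TK1 was 0.39 apart (adjusted p = 0.00171), against -0.02 as labelled, and E2F1 stayed lower (-0.33, adjusted p = 0.0129).

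At baseline, in the siNC cells, both lines expressed all 45 genes. The means ran in AsPC-1 from 3.32 FPKM (CHAF1B) to 131.6 FPKM (PCNA) around a median of 15.8 FPKM, and in Capan-1 from 3.39 FPKM (RFC3) to 189.4 FPKM (PCNA) around 17.5 FPKM. PCNA, at 132 ± 5.43 FPKM (SD, n = 3), stood above RRM2 at 116 ± 1.08 FPKM and MCM7 at 109 ± 1.06 FPKM in AsPC-1, with no overlap between libraries at each step. MCM4 and TYMS, at 82.8 ± 1.47 FPKM and 82.6 ± 3.59 FPKM, came next and overlapped. Relative to Capan-1, 17 genes were higher in AsPC-1 and 21 lower, where 37.9% and 47.0% of 11656 genes were called, so the share was close to that of all genes. RPA1 (1.07), ORC6 (1.01) and RFC5 (1.01) were the farthest above Capan-1, and GINS3 (-1.54), E2F1 (-1.01) and POLE2 (-0.99) the farthest below (adjusted p = 2.9e-09, 7.74e-08, 5.11e-08, 2.82e-08, 3.8e-08 and 2.19e-07). A common sum moved the median of all genes by -0.15, with 13 members higher and 27 lower, and MCM6 and MCM7 changed sign. Median ratios gave 20 higher and 18 lower. The line cannot be told apart from when and how each line was cultured and sequenced.

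Genes next to the 45 in the pathway were counted from 5 further lists. As the measure for their counts, 23.0% of all genes tested were called lower and 35.2% higher with siB4GALT5, 20.4% and 32.5% in siB3GNT3 replicates 1 and 2, and 14.2% and 18.7% in Capan-1. With the siB3GNT3 group of AsPC-1 as labelled, 0 genes of the 5 lists were called. Of 31 tested replication genes outside the 45, 20 fell and 2 rose with siB4GALT5, 12 were called lower and 2 higher in siB3GNT3 replicates 1 and 2, and 6 fell and 0 rose in Capan-1. Their median log2 fold changes were -0.24, -0.18 and -0.02 in these comparisons, and -0.12 with siB3GNT3 in AsPC-1 as labelled. The share called lower was 64.5%, 38.7% and 19.4%. With siB4GALT5 the histone chaperone ASF1B (-0.51), the nuclease DNA2 (-0.53) and geminin (GMNN, -0.32), the inhibitor of CDT1, had the smallest p among those that fell. In siB3GNT3 replicates 1 and 2 ASF1B (-0.68), POLE3 (-1.15), a small subunit of polymerase epsilon, and DNA2 (-0.47) led, and in Capan-1 the fork genes DONSON (-0.59) and TIMELESS (-0.47) and MTBP (-0.48). POLD4, a small subunit of polymerase delta, was higher with siB4GALT5 and in siB3GNT3 replicates 1 and 2 (0.28 and 0.62).

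Of 15 other genes of nucleotide supply, 6 fell and 1 rose with siB4GALT5, 8 were called lower and 2 higher in siB3GNT3 replicates 1 and 2, and 5 fell and 2 rose in Capan-1, in each a larger share lower than over all genes. The folate enzymes MTHFD1 (-0.46 and -0.62) and SHMT1 (-0.81 and -0.58) led in AsPC-1, where CAD, the first enzyme of pyrimidine synthesis, was higher (0.30 and 0.45). In Capan-1 deoxycytidine kinase (DCK, -1.15) fell most, and SAMHD1, which degrades deoxynucleotides, rose (0.67). Of 29 further regulators of the G1 to S step, 7 fell and 9 rose with siB4GALT5, 15 were called lower and 7 higher in siB3GNT3 replicates 1 and 2, and 2 fell and 6 rose in Capan-1. The shares with siB4GALT5 (24.1% lower, 31.0% higher) were near those of all genes, as was the share higher in Capan-1 (20.7%), while 6.90% were lower there and 51.7% were lower and 24.1% higher in siB3GNT3 replicates 1 and 2. The CDK inhibitors CDKN2B (1.45 and 1.90) and CDKN1A (0.97 and 0.32) were higher with siB4GALT5 and in siB3GNT3 replicates 1 and 2. CDK6 rose with siB4GALT5 (1.35) and in Capan-1 (0.84), and was also called higher in siB3GNT3 replicates 1 and 2. The inhibitor CDKN1B rose in Capan-1 (0.57), and was called higher with siB4GALT5 and in siB3GNT3 replicates 1 and 2 as well. Cyclin D1 (CCND1, -0.86), the ubiquitin ligase subunit SKP2 (-0.58), which marks CDKN1B for degradation, and CDK2 (-0.40) had the smallest p among those that fell with siB4GALT5. In siB3GNT3 replicates 1 and 2 SKP2 (-1.14) came first, with RB1 (-0.85) and CDK2 (-0.75) next. RB1 went the other way with siB4GALT5, where it rose (0.25, adjusted p = 0.00809).

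Of 11 replication checkpoint genes, 2 fell and 6 rose with siB4GALT5, 3 were called lower and 1 higher in siB3GNT3 replicates 1 and 2, and 0 fell and 1 rose in Capan-1. With so few genes these are 18.2% lower and 54.5% higher with siB4GALT5, 27.3% and 9.09% in siB3GNT3 replicates 1 and 2, and 0% and 9.09% in Capan-1. The loader subunit RAD17 (0.59) and the kinase WEE1 (0.42) were among those that rose with siB4GALT5, and FANCD2 (-0.55) and BRCA1 (-0.51) fell. Of 15 mitotic genes, counted to set S phase beside a later phase, 10 fell and 0 rose with siB4GALT5, 8 were called lower and 0 higher in siB3GNT3 replicates 1 and 2, and 7 fell and 0 rose in Capan-1, so 66.7%, 53.3% and 46.7% were called lower. Their median log2 fold changes were -0.51, -0.34 and -0.23, beside -0.29, -0.38 and -0.24 for the 45 replication genes. With siB3GNT3 in AsPC-1 as labelled the medians were -0.22 for the mitotic genes and -0.25 for the 45. The mitotic factor FOXM1 (-0.85), cyclin B1 (CCNB1, -0.68) and TOP2A (-0.78) led with siB4GALT5, PLK1 (-0.78) and CCNB1 (-0.82) in siB3GNT3 replicates 1 and 2, and MKI67 (-0.80) and PLK1 (-0.42) in Capan-1. The mitotic genes that passed were lower in each comparison, as most of the replication genes that passed were, and the difference between the 2 lists was not tested.

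In GENCODE 29 (GRCh38) 21 of the 45 genes are overlapped by a gene on the other strand, among them TYMS (TYMSOS and ENOSF1), FEN1 (TMEM258), RFC5 (WSB2), CCNE2 (INTS8) and MCM7 (AP4M1). Nothing in the labels says whether the counting used strand, so reads of such pairs may not be told apart. For PCNA, RFC3, RFC5, FEN1, RPA2, RRM2 and TYMS the annotation holds pseudogenes of the same name, and reads could be divided between copies. PCNA lies on chromosome 20 (5114953 to 5126626, minus strand), RRM2 on chromosome 2 (10120698 to 10131419, plus), TK1 on chromosome 17 (78174075 to 78187233, minus), MCM6 on chromosome 2 (135839626 to 135876426, minus) and CCNE1 on chromosome 19 (29811898 to 29824308, plus).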

How the data were processed

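The authors deposited 1 table of FPKM values for 15 libraries, and it was used as deposited. The submitters' processing notes name Bowtie2, RSEM 1.3.1, DESeq2 1.4.5 and GRCh38 without their roles; the gene annotation is not named in the sources used here. Libraries were grouped by their titles. Log2(FPKM + 1) was compared with limma 3.58.1 in R 4.3.3 (intensity trend, two-sided, Benjamini-Hochberg over all genes tested). Genes with at least 1 FPKM in at least 3 libraries of the fit were tested. All 45 members passed this filter in every fit that used it, and 41 to 43 passed the alternative filter of 5 FPKM. A call is an adjusted p under 0.05. On this scale the changes of low genes are understated. The siB4GALT5 fit used 8 AsPC-1 libraries, without the one labelled siB3GNT3 replicate 3, and the other fits the libraries as labelled, with values without it beside them. Each library's values are given for 2 members per role with the smallest p with siB4GALT5, the member per role with the largest change in Capan-1, and members called against their role; E2F1 was added after its values were seen. From other lists up to 3 genes per direction with the smallest p were eligible. Alternatives were pseudocount 0.1, no filter, 5 FPKM, median-ratio and common-sum scaling, no trend, 2-fold, a replicate block, each library left out and other fits. Scaling without the set-apart library was added after the data were seen. The members and lists were chosen with earlier results of these data known. The fits were tested on simulated data, whose spread was taken from the siNC libraries alone. The wider spread of some knockdown groups was not simulated, so this does not test the fits under it. Figures and counts used Python 3.11.15. A leukocyte marker of the lists is not reported here.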

Additional observations from a re-analysis of the deposited data

Results flagged for a closer look

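For 6 replication genes the response to siB3GNT3 differed between AsPC-1 and Capan-1 in the interaction test with the libraries as labelled (limma, adjusted p under 0.05), which includes the set-apart library of AsPC-1. The log2 response in AsPC-1 minus that in Capan-1 was 0.86 for E2F1 (adjusted p = 0.00183), 0.46 for CDC6 (adjusted p = 0.0434) and 0.39 for CHAF1A (adjusted p = 0.0282). It was -0.45 for ORC6 (adjusted p = 0.0331), -0.41 for CDT1 (adjusted p = 0.0307) and -0.44 for RPA2 (adjusted p = 0.0199). Without the set-apart library the same differences were 0.89, 0.53, 0.36, -0.46, -0.36 and -0.49 in that order of genes. For E2F1, CDC6 and CHAF1A the Capan-1 libraries with siB3GNT3 all lay below siNC, and for ORC6, CDT1 and RPA2 all above.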

How the results depend on the processing

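The number of members called was 29 with siB4GALT5, 0 with siB3GNT3 in AsPC-1, 21 in Capan-1, 1 between both knockdowns, 6 in the interaction and 38 between the lines. A pseudocount of 0.1, no filter, a 5 FPKM filter, both scalings and no trend gave 27 to 34 members with siB4GALT5, 0 with siB3GNT3 in AsPC-1, 16 to 25 in Capan-1, 4 to 6 in the interaction and 36 to 40 between the lines. Requiring 2-fold left 1, 0, 2, 0, 0 and 5 members, and 441, 0, 209, 113, 169 and 3064 genes. With siB4GALT5, 17 members were called in the fit of all 9 AsPC-1 libraries. With siB3GNT3 in AsPC-1 no filter gave 3 genes and median-ratio scaling 1. Between both knockdowns 0 members were called with no filter, with a common sum and with the replicate block. Between the lines 25 members were called in a fit of all 15 libraries. With siB3GNT3 in Capan-1, 6 members lost their call in such a fit. For the set-apart library no filter gave 143 genes. With each library left out in turn the members called ranged from 25 to 33 and the genes from 5366 to 6863 with siB4GALT5. They ranged from 0 to 36 and from 0 to 6030 with siB3GNT3 in AsPC-1, from 13 to 29 and from 2069 to 5715 in Capan-1, from 0 to 13 and from 733 to 3789 between both knockdowns, and from 1 to 22 and from 712 to 4173 in the interaction, counting the added scalings without the set-apart library. Without the set-apart library the members called were 33 with siB3GNT3 (36 under median ratios, 30 under a common sum; 5697, 5658 and 6030 genes), 11 between both knockdowns (13 and 11; 3789, 3749 and 3761 genes) and 15 in the interaction (22 and 14; 4009, 4066 and 4173 genes). Between both knockdowns the median log2 change of the members was -0.042 as labelled and ranged from -0.12 to 0.084 with a library left out: it turned to 0.062 without the set-apart library, and to 0.084 and 0.061 there under median ratios and a common sum. TK1 ranged from -0.22 to 0.39, and turned to 0.39 without that library. Between the lines the median turned to 0.019 under median ratios, and MCM6 (-0.10) and MCM7 (-0.073) turned under a common sum. The cause of these shifts was not tested. Titles share replicate numbers across groups, but same-numbered libraries did not deviate together (r -0.04 to 0.07). These values give no sign of pairing by title number, and they cannot tell whether libraries were made together. The library names carry other numbers, and a pairing by those was not tested. With the replicate block 28, 0, 19, 0, 4 and 37 members were called in the order above. FPKM carry no depth, so no value has a counting limit.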
